A study of Rattus norvegicus with 4 samples.

Results

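Ionotropic glutamate receptors are channels built of several subunits, and the genes followed here code for 10 such subunits. They are Grin1, Grin2a, Grin2b, Grin2c and Grin2d of the NMDA receptor, Gria1, Gria2 and Gria3 of the AMPA receptor, and Grik2 and Grik5 of the kainate receptor. Members were taken by gene name from the count files, which list 25810 genes. A row was found for 8 of the 10 names, and none for Gria1 or Grik2, whose levels were therefore not analysed here. Of the 8 genes, Gria3 had no read in any library and 7 had reads. RNA came from 2 clones of PC12, a rat pheochromocytoma line of chromaffin origin that is used as a neuronal model. The clone wtPC12 has low levels of REST, a repressor of neural genes, and the clone hrPC12 is one whose REST is spontaneously high. Each clone gave 2 libraries, and no treatment is named. Because each REST level is represented by a single clone, REST and other differences between the clones cannot be told apart, and fewer transcripts per cell cannot be told apart from fewer cells that carry the transcript. The labels do not say that the libraries of a clone came from separate cultures, so p values measure the spread between libraries, which may be technical.

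As background, glutamate opens all these channels, and they differ in what they pass and when. NMDA receptors need the subunit GluN1, coded by Grin1, together with GluN2 subunits coded by Grin2a to Grin2d. They bind glycine or D-serine besides glutamate and let calcium in when the membrane is depolarised. AMPA receptors carry most of the fast excitatory current of the brain, and their subunit GluA2, coded by Gria2, makes them poorly permeable to calcium once its transcript has been edited. Kainate receptors are built of low-affinity subunits such as GluK2 and high-affinity subunits such as GluK5, the product of Grik5, which does not form channels on its own.

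The reads counted on genes numbered from 20975027 to 27246502 per library, and levels are given as normalized counts, that is, reads scaled to a common library size with TMM factors. Rest itself had from 43.0 to 132 normalized counts in the wtPC12 libraries and from 915 to 964 in the hrPC12 libraries, in the direction of the labels (log2 FC 3.42, edgeR BH-adjusted p = 0.0115). Here log2 FC is that of hrPC12 over wtPC12, p values come from the quasi-likelihood test of edgeR with Benjamini-Hochberg (BH) adjustment, and genes named as called, lower or higher, are those whose log2 FC lay beyond 2 or −2 with an adjusted p value below 0.01, which Rest missed by its p value. Of the chromaffin markers, 4 of 6 tested genes were lower in hrPC12, among them Chgb and Slc18a1, and 2 were not called. The summed level of these markers ranged from 797175 to 934145 normalized counts in wtPC12 and from 45533 to 49962 in hrPC12, and Chga and Pnmt had no row. Neuronal markers summed to between 20954 and 24911 in wtPC12, and to 1512 and 1513 in hrPC12, with 2 of 4 tested genes lower and Gad1 without a read. Snap25 made up most of the wtPC12 sums, with 23276 and 18013 normalized counts. The 2 tested genes not called were Map2 (log2 FC 0.47) and Slc17a7 (0.42). Fibroblast markers summed to 114 and 147 in wtPC12 and to 84256 and 88643 in hrPC12, nearly all of it Col3a1. Of 4 tested genes 3 were higher, and Lum had no read in wtPC12. Dcn went the other way without being called (log2 FC −3.10, edgeR BH-adjusted p = 0.0182). Glial markers summed to at most 166 in wtPC12 and 257 in hrPC12, with the 1 tested gene not called and Sox10 without a read. White blood cell markers summed to at most 27.9 in wtPC12 and 421 in hrPC12, with Cd14 higher, while Ptprc, which marks all white blood cells, had 1 read in 1 hrPC12 library. The part of these differences in the receptor results was not tested.

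Promoters show the sequence in front of the receptor genes for which a window was at hand. The RefSeq windows, on the assembly GRCr8 and not on the build of the counts, run from 250 bases before to 50 bases after the start of a gene and were found by symbol for 5 of the 10 genes, Grin1, Grin2c, Grin2d, Grik2 and Grik5. The windows of Grin1, the gene with the largest fall, and of Grik5, the gene with the smallest difference, are printed from 5′ to 3′. Capitals mark the GC box GGGCGG, read on both strands.

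Grin1, chr3:28528705-28529004, minus strand: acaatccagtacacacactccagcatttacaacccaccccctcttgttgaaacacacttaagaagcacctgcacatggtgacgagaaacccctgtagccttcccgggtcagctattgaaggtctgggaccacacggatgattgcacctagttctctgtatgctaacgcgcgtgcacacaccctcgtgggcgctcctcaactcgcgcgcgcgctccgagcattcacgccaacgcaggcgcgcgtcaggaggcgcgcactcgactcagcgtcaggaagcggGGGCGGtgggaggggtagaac
Grik5, chr1:89794860-89795159, minus strand: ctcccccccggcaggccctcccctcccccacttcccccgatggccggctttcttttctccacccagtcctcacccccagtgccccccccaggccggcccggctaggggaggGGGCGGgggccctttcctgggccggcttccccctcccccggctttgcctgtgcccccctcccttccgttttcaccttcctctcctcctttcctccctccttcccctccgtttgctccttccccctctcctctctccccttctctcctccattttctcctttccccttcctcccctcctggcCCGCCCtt

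The Grin1 window holds 1 GC box and 25 CG dinucleotides, and that of Grik5 holds 2 GC boxes and 11 CG dinucleotides, where 33.1% of all 33469 windows hold a GC box and the median window has 7 CG dinucleotides. Neither Grin2c, Grin2d nor Grik2 has a GC box in its window. The site bound by REST, RE1, was searched on both strands as TTCAGCACC and GGACAGCGC with 2 bases between them, which gives 18 letters to compare. At most 4 mismatches were found in 0.529% of all windows and in none of the 5 receptor windows, whose best matches had 7 or 8. These letters are absent from these windows only, and RE1 sites elsewhere in the genes were not searched.

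The comparison of the clones asks which receptor genes differ with the REST level. Counts of Grin1 and Gria2 were far lower in hrPC12, those of Grin2b and Grin2a were found almost wholly in hrPC12, and Grin2c, Grin2d and Grik5 were lower by smaller amounts. The plot of normalized counts by library shows the 8 genes with a row.

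**Figure D1:**
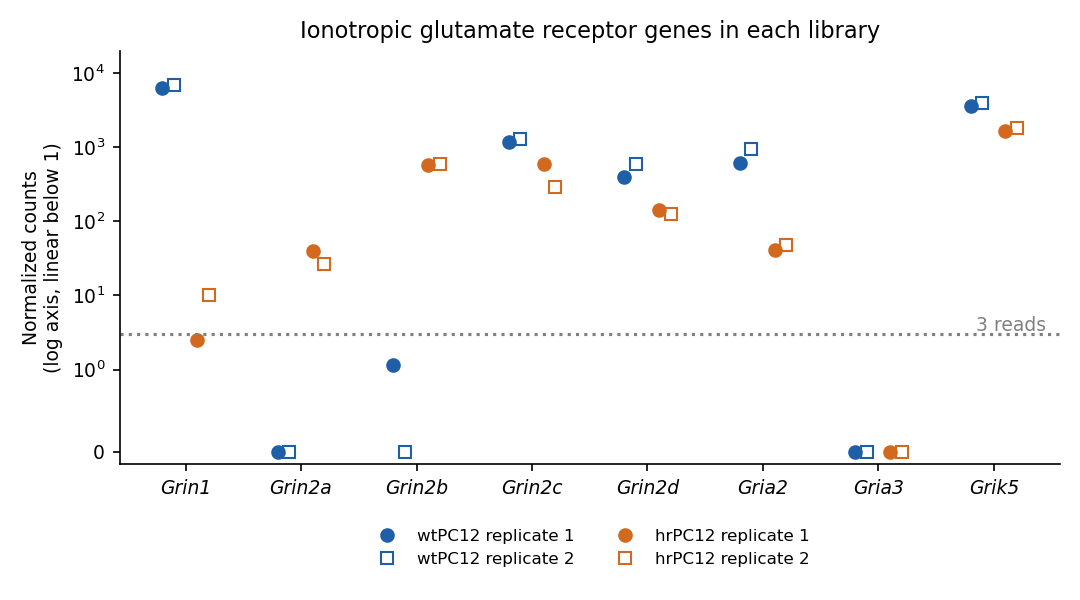
Normalized counts of the 8 receptor genes with a row (x axis) in each of the 4 libraries, on a log axis that is linear below 1, with the mean level of 3 reads as a dotted line. Both wtPC12 points (blue) of Grin1 lie at 6266 and 6876 and both hrPC12 points (orange) near the line, those of Grin2b show the opposite arrangement, and Gria3 is at 0 throughout.

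The test was run on 13726 genes, which had reads in both clones and averaged 5 normalized counts or more, and p values were adjusted over all of them. By the thresholds given, 5.46% of these genes were called lower and 4.84% higher. Of the 10 receptor genes 6 could be tested, and Grin1 and Gria2 were called lower and Grin2b higher. Grin2a was outside the test because it had no read in wtPC12. These 6 genes had a median log2 FC of −1.69, beside 0.06 for all tested genes. All 6 had an adjusted p value under 0.05, as did 32.4% of all tested genes, and in all 6 the libraries of the clones did not overlap, as in 73.5% of all tested genes. As 2 libraries against 2 allow no 2-sided permutation p value under 0.333 for a gene taken alone, the test borrows its estimate of spread from all genes.

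**Figure D2:**
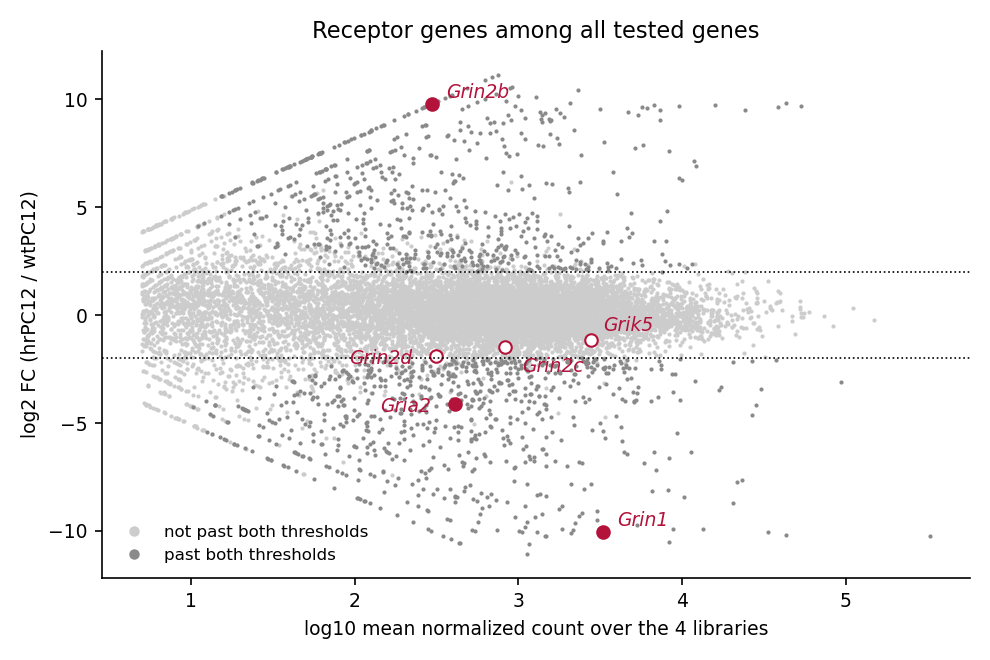
Log2 FC (hrPC12/wtPC12, y axis) against the log10 mean normalized count over the 4 libraries (x axis) for the 13726 tested genes, in dark grey where past both thresholds. The 6 tested receptor genes are in red, filled for Grin1, Gria2 and Grin2b, which were called, and open for Grin2c, Grin2d and Grik5, which lie between log2 FC values of −2 and 0.

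Grin1 codes for the subunit that every NMDA receptor holds. It had 6266 and 6876 normalized counts in the wtPC12 libraries, and 2.54 and 10.1 in the hrPC12 libraries, which correspond to 3 and 10 reads. Both wtPC12 libraries were thus high and close to each other, and both hrPC12 libraries were near the limit of detection, taken as 3 reads. What was left in hrPC12 was 0.0386% and 0.154% of the wtPC12 mean. Means were 6571 ± 431 (SD, n = 2) for wtPC12 against 6.33 ± 5.36 (SD, n = 2) for hrPC12, and Grin1 fell with a log2 FC of −10.05 ± 0.51 (standard error, edgeR BH-adjusted p = 0.000478). Without wtPC12 replicate 2 the log2 FC was −9.98 and the edgeR BH-adjusted p value was 0.0173, not past the threshold. In that fit of 3 libraries no gene of the whole table was called.

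Grin2b codes for the GluN2B subunit, which prevails in NMDA receptors of the immature forebrain. It showed the reverse of Grin1. The wtPC12 libraries held 1 and 0 reads, or 1.16 and 0 normalized counts, and the hrPC12 libraries 686 and 591 reads, or 581 and 598 normalized counts. The hrPC12 libraries were close to each other, with a mean of 589 ± 12.2 (SD, n = 2), and the wtPC12 libraries were at the limit of detection. The ratio of the summed reads, scaled by library size, was 1077 in favour of hrPC12, with a 95% interval from 193 to 42588 (exact binomial, counting error only), a width set by the single wtPC12 read. Grin2b rose with an edgeR BH-adjusted p value of 0.000776. Without wtPC12 replicate 2 the edgeR BH-adjusted p value was 0.0139, and without wtPC12 replicate 1 the gene could not be tested, since no wtPC12 read was left.

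Grin2a, the gene of the GluN2A subunit of mature synapses, had no read in either wtPC12 library and 47 and 26 reads in the hrPC12 libraries. These are 39.8 and 26.3 normalized counts, so both hrPC12 libraries lay above the level of 3 reads. Taking 3 reads in each wtPC12 library as the limit, Grin2a was at least 10.04-fold higher in hrPC12. When every gene with at least 1 read was tested, Grin2a was called higher with an edgeR BH-adjusted p value of 0.00189, in a setting that called 6.12% of 18416 genes higher.

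Grin2c, whose subunit is known from cerebellar granule cells, had 1159 and 1292 normalized counts in wtPC12. In hrPC12 it had 586 in replicate 1 and 287 in replicate 2. The clones did not overlap, but the hrPC12 libraries differed from each other more than the wtPC12 libraries did. The means were 1225 ± 94.1 (SD, n = 2) and 437 ± 211 (SD, n = 2), with a log2 FC of −1.49 (95% interval −2.46 to −0.51, edgeR BH-adjusted p = 0.0387), which did not pass either threshold. Without hrPC12 replicate 1 the log2 FC was −2.09 with an edgeR BH-adjusted p value of 0.000512, which passed both.

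The neighbours of Grin2c, looked at after the values were seen, shared this difference between the hrPC12 libraries. By symbol, 65.2% of tested genes had a place on the assembly GRCr8, and there the 3 nearest such genes on each side of Grin2c were all higher in hrPC12 replicate 1 than in replicate 2. Their median log2 ratio of replicate 1 to replicate 2 was 0.998 (range 0.71 to 1.33, the highest from Dnai2, which had few reads), and that of Grin2c was 1.03. Of 8830 groups of 6 neighbours along the genome 0.159% reached a median as high. These groups overlap, and the region was chosen after its values were seen, so this share is not a p value. Around the other 6 receptor genes with reads the median ranged from −0.13 to 0.17. In the wtPC12 libraries, Gria2 and its neighbours were both lower in replicate 1. The log2 ratio of replicate 1 to replicate 2 was −0.61 for Gria2, with a median of −0.55 for the neighbours. Grin2d had a like ratio of −0.60, but its neighbours had a median of 0.39. The share of all groups that reach such medians was not computed for wtPC12. The source of these differences between libraries was not tested.

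**Figure D3:**
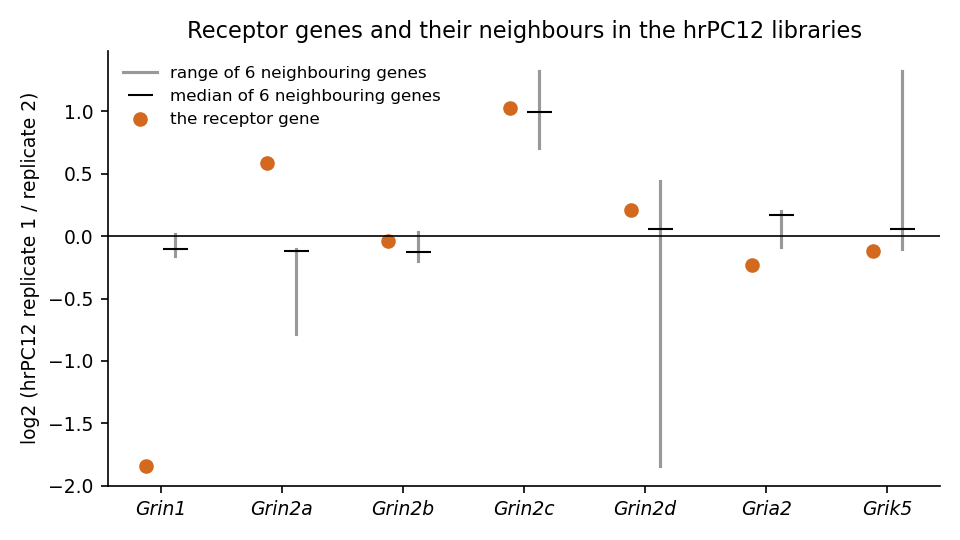
Log2 ratio of hrPC12 replicate 1 to replicate 2 (y axis) for each of the 7 receptor genes with reads (orange points), beside the range (grey line) and median (black bar) of the 3 nearest tested genes on either side. For Grin2c the gene (1.03) and the median of its neighbours (0.998) are close together, while the other 6 medians lie between −0.13 and 0.17.

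Grin2d codes for the GluN2D subunit of early development and some interneurons. It had 394 and 598 normalized counts in wtPC12 and 144 and 124 in hrPC12. All wtPC12 values were above all hrPC12 values, and the wtPC12 libraries were the more spread. The means were 496 ± 144 (SD, n = 2) and 134 ± 13.8 (SD, n = 2), and the log2 FC was −1.89 (95% interval −2.72 to −1.05, edgeR BH-adjusted p = 0.0132), short of both thresholds. Without wtPC12 replicate 1 it was −2.19 with an edgeR BH-adjusted p value of 0.00732, past both.

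Of the AMPA receptor genes with a row, Gria2 had reads and Gria3 had none, which allows up to 3 reads, or from 2.54 to 3.49 normalized counts, per library. Gria2 had 614 and 935 normalized counts in wtPC12, and 41.5 and 48.6 in hrPC12, so that 5.35% and 6.27% of the wtPC12 mean were left. The residue of Gria2 in hrPC12 thus stood well above the limit of detection, unlike that of Grin1. With means of 775 ± 227 (SD, n = 2) and 45.0 ± 5.01 (SD, n = 2), Gria2 fell with a log2 FC of −4.10 ± 0.35 (standard error, edgeR BH-adjusted p = 0.00162). Without wtPC12 replicate 2 the log2 FC was −3.77 and the edgeR BH-adjusted p value 0.0170.

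The kainate receptor gene Grik5 differed least. It had 3643 and 3996 normalized counts in wtPC12 and 1663 and 1805 in hrPC12, with little spread within either clone. Its means were 3820 ± 249 (SD, n = 2) and 1734 ± 101 (SD, n = 2). The log2 FC was −1.14 (95% interval −1.57 to −0.71, edgeR BH-adjusted p = 0.00824), past the adjusted p threshold and within the log2 FC threshold, and 43.5% and 47.3% of the wtPC12 mean were left. With any 1 of the 4 libraries left out, the edgeR BH-adjusted p value of Grik5 was above 0.01 (0.0147 to 0.0424). No row carries the name Grik2. A row listed as GRIK2_RAT, which the files do not pair with a gene symbol, held 0 reads in both wtPC12 libraries and 3 reads in each hrPC12 library, at the limit of detection in both clones.

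**Figure D4:**
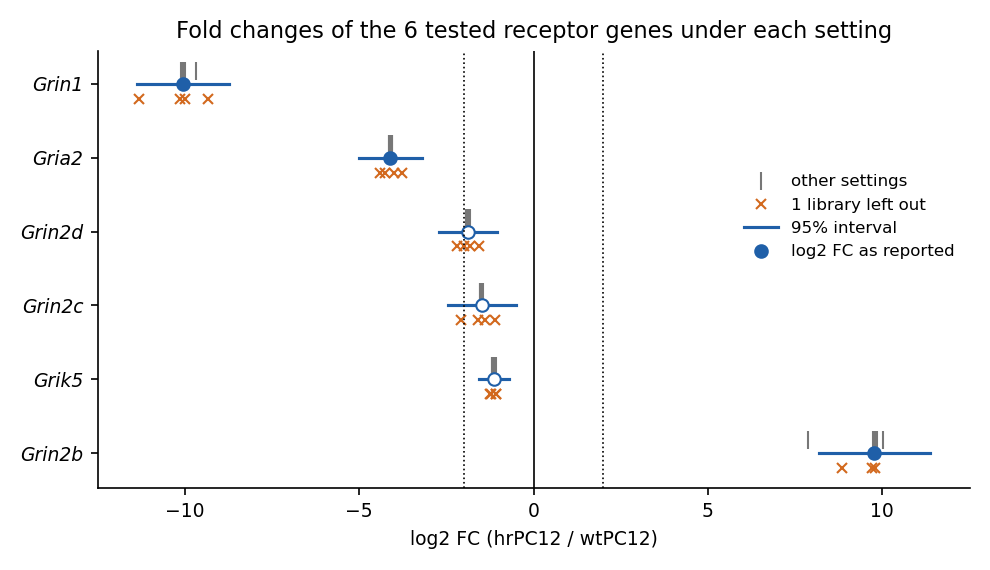
Log2 FC (hrPC12/wtPC12, x axis) of the 6 tested receptor genes, with the 95% interval of the fit (blue line), the values under other settings (grey ticks) and those with 1 library left out (orange crosses). No value crosses 0, and the values of Grin2c and Grin2d lie on both sides of −2 when a library is left out.

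The genes around the receptors were read from 7 lists. The counts and medians of each list are to be read beside those of all 13726 tested genes. Of these, 5.46% were called lower and 4.84% higher, and their median log2 FC was 0.06. Of the 8 remaining ionotropic receptor genes, 6 had a row and none was tested, for low counts or for want of reads in both clones. Grik4, which codes for the high-affinity kainate subunit GluK4, was left out for the latter reason and had no read in wtPC12 and 164 and 163 normalized counts in hrPC12, at least 49.7-fold higher. The counts of Grik4 thus lay on the hrPC12 side, where those of Grik5, the other high-affinity kainate subunit, were the lower. Gria4 and Grik1 had no read, and Grid1 and Grik3 had at most 6 reads in a library. Grin3a and Grin3b had no row under these names. Rows listed as NMD3A_RAT and NMD3B_RAT, which the files do not pair with symbols, had no read and a log2 FC of −1.08 (edgeR BH-adjusted p = 0.0598).

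Auxiliary subunits of AMPA and kainate receptors steer the channels to the membrane and set their gating. Of 15 listed genes 11 had a row, 5 were tested, 3 were called lower and none higher, with a median log2 FC of −3.20. Cacng2, the gene of stargazin, had 155 and 305 normalized counts in wtPC12 and 0 and 1.01 in hrPC12, where the latter is a single read. The ratio of its summed reads was 508 in favour of wtPC12, with a 95% interval from 90.8 to 20130.1 (exact binomial), and its edgeR BH-adjusted p value was 0.00264. Cacng7 fell from 1121 and 1444 to 119 and 142 normalized counts, and its log2 FC was −3.30 ± 0.27 (standard error). Shisa7 fell from 1235 and 2051 to 196 and 162, a log2 FC of −3.20 ± 0.34 (standard error). Neto2, an auxiliary subunit of kainate receptors, had 254 and 254 normalized counts in wtPC12 and 783 and 410 in hrPC12, and was not called (log2 FC 1.23, 95% interval 0.27 to 2.19). Cnih2 was not called either (log2 FC −0.80, 95% interval −1.74 to 0.13). Without hrPC12 replicate 2, 4 of these genes could be tested and 2 were called lower. Without wtPC12 replicate 2 none was called, here as in every list that follows.

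Scaffold proteins hold the receptors at the postsynaptic density. Of 21 listed genes 20 had a row and 19 were tested, of which 5 were called lower, 1 higher and 13 neither, with a median log2 FC of −0.71. Tested against a log2 FC of 2 with glmTreat, 2 were called lower and 1 higher. With the filter filterByExpr, 20 were tested, and 7 were called lower and 1 higher. Dlg4, the gene of PSD-95, fell from 1331 and 1732 to 256 and 227 normalized counts, its log2 FC being −2.67 ± 0.25 (standard error, edgeR BH-adjusted p = 0.00210). Homer2 (log2 FC −3.67), Shank2 (−4.83) and Dlgap3 (−2.59) fell too, the last with an edgeR BH-adjusted p value of 0.00984, close to the threshold. Shank3 had 90.7 and 169 normalized counts in wtPC12 and 3 and 0 reads in hrPC12, a ratio of summed reads of 95.6 (95% interval 32.3 to 467). Dlgap2, which had no read in hrPC12 and stood outside the test, was at least 23.2-fold lower. Grip2, which binds AMPA receptor tails, rose from 1.16 and 1.03 to 119 and 111 normalized counts, where each wtPC12 value is a single read and the ratio of summed reads was 106 (95% interval 29.0 to 879). The gene with the highest counts among those not called was Pick1, another partner of AMPA receptor tails, with 3040 and 2442 normalized counts in wtPC12 and 844 and 909 in hrPC12 (log2 FC −1.65). Dlg1, a relative of Dlg4, had a log2 FC of 0.21 with overlapping clones.

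Kinases and phosphatases that act on the receptors or answer to the calcium they admit made up a list of 12, with 10 rows and 9 tested genes. Camk2b and Camk4 were called lower and none higher, and the median log2 FC was −0.53. Ppp3ca, not called, had 211 and 374 normalized counts in wtPC12 and 1288 and 711 in hrPC12 (log2 FC 1.77, edgeR BH-adjusted p = 0.0345). Camk2b, a subunit of the kinase CaMKII, fell from 1822 and 1757 to 112 and 126 normalized counts (log2 FC −3.91, standard error 0.23), while Camk2g, another subunit of that kinase, had a log2 FC of −0.12 with overlapping clones. Camk4 had 0 and 1 read in hrPC12 against 54 and 51 reads in wtPC12, a ratio of 124 (95% interval 21.9 to 4962). Nos1, the neuronal nitric oxide synthase, had no read in any library. Without wtPC12 replicate 1, 1 gene of the list was called lower, and without hrPC12 replicate 2, 1 was lower and 1 higher.

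Of 8 metabotropic glutamate receptor genes, which signal through G proteins, all had a row and 2 were tested, and neither was called. The median log2 FC of the 2 was 2.27. Grm4 had 39.6 and 41.2 normalized counts in wtPC12 and 151 and 144 in hrPC12 (log2 FC 1.86, edgeR BH-adjusted p = 0.0130), so every hrPC12 value was above every wtPC12 value. Grm5, Grm7 and Grm8 had no read.

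The supply of glutamate and of the co-agonist D-serine was covered by 7 genes, and the 4 tested had a median log2 FC of 0.53. Of these, 1 was called lower and none higher. That gene was Gls2, a glutaminase, with 822 and 878 normalized counts in wtPC12 and 184 and 217 in hrPC12 (log2 FC −2.09, standard error 0.24), and it was not called without hrPC12 replicate 1, when the list had 0 calls. Of the genes of vesicular glutamate transporters, Slc17a7 had a log2 FC of 0.42 (95% interval −0.17 to 1.01), Slc17a6 had no read in wtPC12 and was at least 14.1-fold higher in hrPC12, and Slc17a8 had no read. Among the 3 genes of RNA editing enzymes, 2 were tested, with a median log2 FC of −0.30, and neither was called. Adarb1, whose product edits the Gria2 transcript, had a log2 FC of −0.41 (95% interval −1.17 to 0.35). Adarb2 had no read in wtPC12 and 16 and 11 reads in hrPC12, at least 3.75-fold higher by the limit of 3 reads. When every gene with at least 1 read was tested, all 3 editing genes were tested and none was called.

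**Figure D5:**
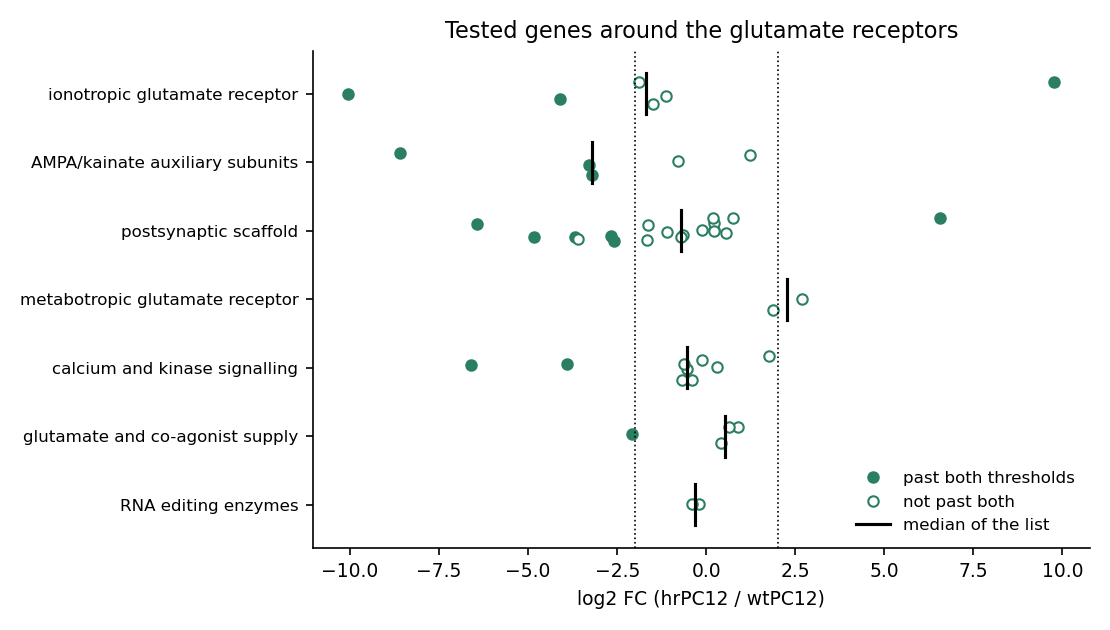
Log2 FC (hrPC12/wtPC12, x axis) of the tested receptor genes and of the tested genes of 6 related lists, filled where past both thresholds, with the median of each list as a black bar. Called genes are mostly on the lower side, with Grin2b and Grip2 as the 2 called higher. Genes with reads in a single clone were not tested and are not shown. Among them are Grin2a, Grik4, Slc17a6 and Adarb2, read in hrPC12 only, and Dlgap2, read in wtPC12 only.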

How the data were processed

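RNA of 4 libraries, 2 of wtPC12 and 2 of hrPC12, had been sequenced as paired-end reads. Per the submitters' processing notes and the methods, the authors aligned them to rn4 with TopHat2 2.0.4 and counted them with HTSeq 0.5.3, and the deposited values are raw counts per gene, unfiltered. Lines that name no gene were kept out of library sizes, reads on no feature being 49.9% to 55.9% of each file's total and reads without a unique place 5.85% to 9.13%. The authors' DESeq table holds clone means, fold changes and p values and was not used. The library kit does not mark strand, so overlapping antisense reads cannot be separated.

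Counts were normalized with TMM factors and compared with edgeR 4.0.16 (glmQLFit with the legacy option, glmQLFTest, prior count 0.125, R 4.3.3) in place of DESeq, with Benjamini-Hochberg adjustment over all 13726 tested genes and a common dispersion of 0.0745. Filter and thresholds follow the study's methods. Standard errors are the log2 FC divided by the root of the F statistic, and 95% intervals use its degrees of freedom. The test was checked on simulated counts. The libraries of a clone differed by more than sampling noise (chi-square per degree of freedom 86.8 and 62.9) and were kept as 2. Limits of 3 reads and count intervals cover counting error only.

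Samples were grouped by the labelled REST level. The genes named are the 10 members, Rest and, from each list, those past both thresholds and up to 3 of the most abundant others. Further genes of the lists, chosen after their values were seen, are named for having no read or reads in a single clone, and the markers likewise. Ppp3ca, also chosen so, is named as the gene of its list that was higher at an adjusted p value under 0.05. Some genes of the lists are not reported here. Members and lists were chosen with earlier results of these data known. Alternatives were RLE factors, library totals, 2 other filters, DESeq2 1.42.0, glmTreat, the legacy option off, a prior count of 2, a looser adjusted p threshold of 0.05, and leaving out 1 library at a time. Transcript lengths of the build were not used here, so levels are not ranked between genes.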

Additional observations from a re-analysis of the deposited data

How the results depend on the processing

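The 6 tested receptor genes gave 77 fold changes under the alternatives, of which 72 kept the gene called or not called as before, 3 lost the call, 2 gained it and none changed direction. Among those 72, adjusted p values alone did cross 0.01, upward for Grik5 and downward for Grin2c and Grin2d, with the log2 FC short of 2 in size. Without wtPC12 replicate 2, Grin1 (log2 FC −9.98), Gria2 (−3.77) and Grin2b (8.84) lost their call. In that fit edgeR called 0 genes lower and 0 higher in the whole table, with a smallest adjusted p value of 0.0134 and 6798 genes at an unadjusted p under 0.05, among them 5 of the 6 receptor genes. Leaving out hrPC12 replicate 1 brought in Grin2c (−2.09), and leaving out wtPC12 replicate 1 brought in Grin2d (−2.19). With a library left out, the values ran from −11.31 to −9.32 for Grin1, −4.41 to −3.77 for Gria2, 8.84 to 9.78 for Grin2b, −2.09 to −1.11 for Grin2c, −2.19 to −1.55 for Grin2d and −1.25 to −1.07 for Grik5. The receptor genes called lower numbered from 0 to 3 and those called higher from 0 to 1, against 2 and 1 with all libraries. The latter were 2 with every gene that has a read and with filterByExpr, by the addition of Grin2a. Over all genes, 749 were called lower and 665 higher, and from 0 to 859 and from 0 to 962 with a library left out. The higher count was 1127 with every gene that has a read and 1088 at an adjusted p under 0.05, and glmTreat left 353 lower and 321 higher. Of the related lists, glmTreat left 1 auxiliary, 2 scaffold and 1 kinase list gene lower and 1 scaffold gene higher. It left no call among the genes of glutamate and co-agonist supply. Both glmTreat and the looser adjusted p threshold kept the fold changes reported above, so among the 77 these could not change direction. In fits with 1 library of a clone, that library is assumed to vary like the other clone. A count of 0 reads in a library allows up to 3 reads. No paired analysis was possible because the labels give the clones no shared replicate numbers, and the numbers 1 and 2 used here only name libraries in order of accession.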
